A study of Solanum lycopersicum with 96 samples.

Results

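The regions described here lie in the last 5 Mb of 11 tomato chromosomes (Solanum lycopersicum), all but chromosome 4. A region was counted when its midpoint fell within 5000000 bases of the last base that any of 8 lists gives for that chromosome. This selected 7630 of the 237372 regions in the 8 lists. Another 12848 regions lay in the first 5 Mb of the same chromosomes, 197364 lay between both ends, and 427 lay in the last 5 Mb of chromosome 4.

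The series examined seed of the cultivars Moneyberg and Bolstar by whole-genome bisulfite sequencing, in which unmethylated cytosines are converted and methylated ones are not. Mother plants had been given chemical elicitors, compounds that prime plant defence, and the seed was asked for traces of that treatment in its DNA methylation. Time windows 2 and 3 of treatment, whose dates the labels do not give, are written TW2 and TW3. Moneyberg groups were BABA TW2 (beta-aminobutyric acid), Ina TW2, BABA TW3, MeJA TW3 (methyl jasmonate) and a control. The Bolstar groups comprised BABA TW2, Ina TW2 and a control. Each group had 12 libraries by the labels, 2 for each of 6 replicates, from DNA of 10 pooled seeds per extraction. The labelled tissue is seed, which joins embryo, endosperm and seed coat. The text of the series gives fewer libraries and does not mention BABA TW3, which is known here from the labels and its list.

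For each group 1 pooled list was deposited, in which all region names start with HYPO. There is no replicate error for any value below, and no difference between groups was tested. The lists do not say in which direction methylation differed, so "gained" and "lost" refer to listing alone. Each region carries a whole-number score, which grew with length and is read from the values as a number of cytosine sites. The smallest score in a list, its lower limit, differed between lists: 69 in Moneyberg BABA TW2, 68 in Moneyberg Ina TW2, 69 in Moneyberg BABA TW3, 71 in Moneyberg MeJA TW3 and 65 in Moneyberg control. It was 85 in Bolstar BABA TW2, 71 in Bolstar Ina TW2 and 78 in Bolstar control. The highest of these limits, 85, is called the common minimum. Read depth is unknown.

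Tomato chromosomes have a long central part of compact, transposon-rich heterochromatin and arms whose outer parts are open and gene-rich. In plants, cytosines are methylated in the CG, CHG and CHH contexts. Heterochromatin is heavily methylated, whereas many expressed genes carry methylation in the CG context only. Gene content of the windows was not measured here, since no annotation of the lists' genome build was used. Regions are therefore given by coordinates of the lists, counted from 1, without gene names or sequences.

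The last 5 Mb held little listed sequence. Over the 11 chromosomes 13.5% of bases were listed in Moneyberg BABA TW2, 13.5% in Moneyberg Ina TW2, 13.6% in Moneyberg BABA TW3, 13.0% in Moneyberg MeJA TW3 and 13.8% in Moneyberg control. In Bolstar the shares were 11.2% in BABA TW2, 13.0% in Ina TW2 and 11.9% in control. The part between both ends was listed over 61.5% to 62.1% in the 8 lists, and the first 5 Mb over 26.0% to 28.7%. In all 8 lists the last 5 Mb lay below the part between on 11 of 11 chromosomes. It lay below the first 5 Mb in all lists on 8 of 11 chromosomes and above it in all lists on 1, chromosome 11.

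**Figure D1:**
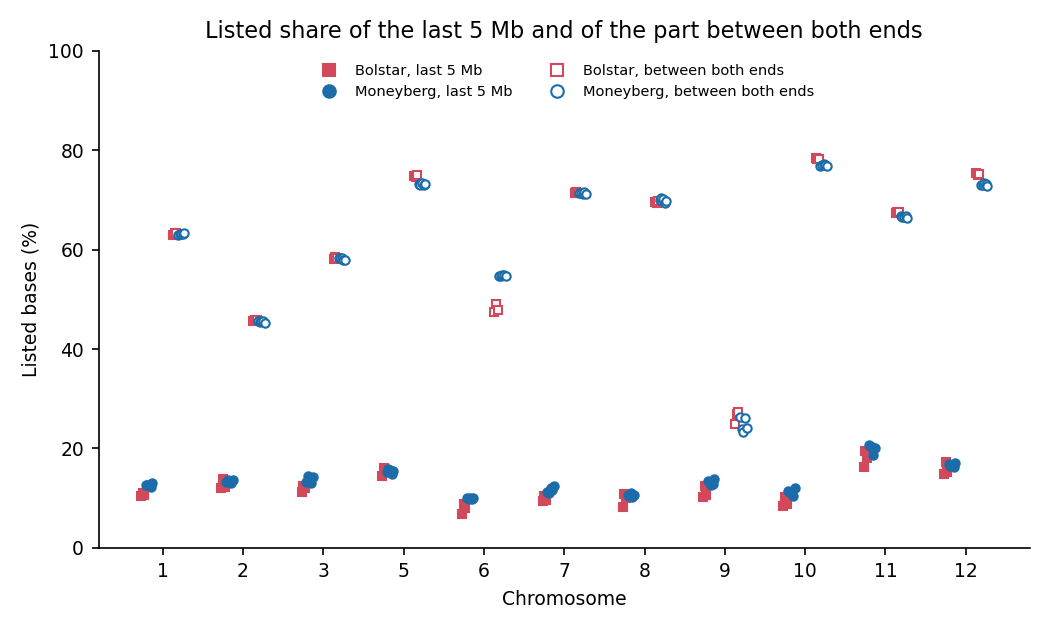
Listed bases (%, y axis) of the last 5 Mb (filled) and of the part between both ends (open) for each chromosome (x axis), with 1 point for each of the 3 Bolstar lists (squares) and 5 Moneyberg lists (circles). In the last 5 Mb the points lie between 6.87% and 20.6%, below the open points of the same chromosome.

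Chromosome ends differed among themselves. Chromosome 6 had the smallest listed share of its last 5 Mb, 6.87% to 10.1% over the 8 lists, and chromosome 11 the largest, 16.3% to 20.6%. Chromosome 12 came next to the top with 14.8% to 17.3%, and chromosome 5 had 14.5% to 16.0%. The last 5 Mb of chromosome 4, which is not counted with the others, was listed over 6.26% to 8.78%, near the range of chromosome 6. On chromosome 9, whose interior is listed over 23.4% to 27.3%, the last 5 Mb had 10.3% to 13.8% and did not stand apart from the other ends.

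Within the window the listed share did not simply decline towards the end. In 1 Mb bins counted back from the last listed base, the outermost bin held 15.1% to 16.9% over the lists. The next bins held 9.05% to 11.7%, 9.77% to 13.6%, 10.2% to 12.4% and 11.6% to 14.9%. The lowest shares thus lay 1 to 4 Mb from the end. Beyond the window the share was 19.1% to 21.7% in the sixth bin and 36.4% to 38.1% in the tenth. The window's inner edge therefore falls where the listed share changes with distance. Each list had 1 region across that edge. Within 250 kb of the edge, 27 to 51 regions per list lay inside, with median lengths of 5.22 to 7.90 kb, and 36 to 56 lay outside, with medians of 5.89 to 7.83 kb.

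**Figure D2:**
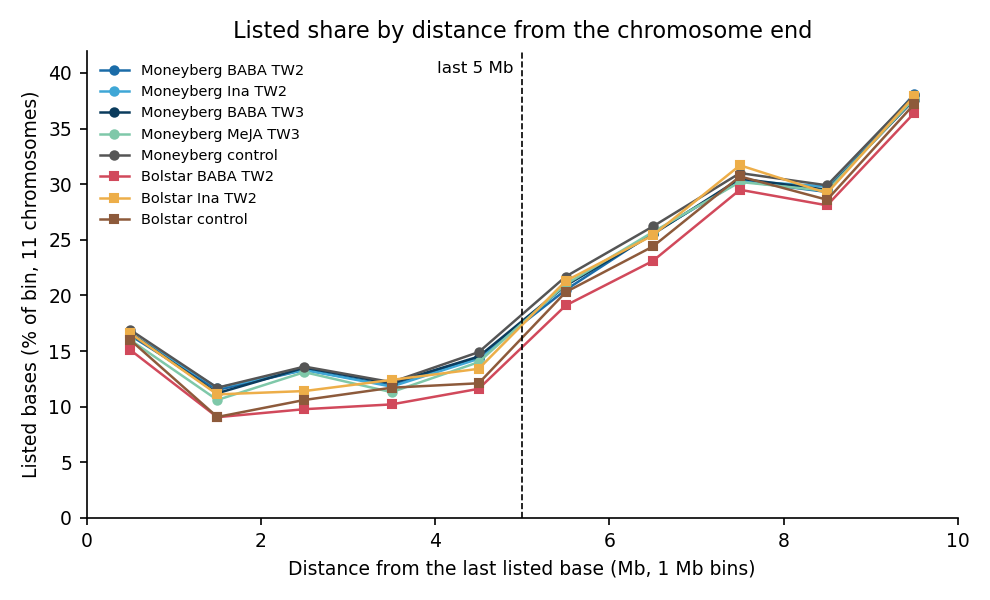
Listed bases (% of the 1 Mb bins of 11 chromosomes, y axis) against distance from the last listed base (Mb, x axis), with 1 line per list and the inner edge of the last 5 Mb dashed. The outermost bin holds 15.1% to 16.9%, more than the 4 bins next to it, and the bins beyond 5 Mb hold 19.1% to 38.1%.

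The higher share of the outermost bin came from its outer part. The last 100 kb were listed over 38.6% to 40.3%, the 100 kb before them over 22.2% to 24.8%, and the next over 14.6% to 18.9%. From 800 to 1000 kb the shares were 7.63% to 10.4%. Because the end of a chromosome is defined by the last listed base, some list must reach it. Still, 70 of 88 last regions, 1 for each list and chromosome, ended at that base. On 6 of 11 chromosomes all 8 lists did so, and on 3 the last region had the same start and end in all 8.

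The end of chromosome 6 had the densest score among the long regions named here. In the last 50 kb the lists held 48.1 to 48.4 kb with a summed score of 2254 to 2271. This is 46.9 to 47.0 per kb, against 16.9 to 17.3 per kb in the rest of the window. Moneyberg MeJA TW3, Bolstar BABA TW2 and Bolstar control gave it as 1 region, and the other 5 lists as 2 regions. In Bolstar control it ran from 49723489 to 49771853. All 8 lists covered at least 99.4% of it, so it was a common feature of treated and control seed in both cultivars.

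Regions of the window were shorter than those of the interior. The median length was 6.36 kb in Moneyberg BABA TW2, 6.27 kb in Moneyberg Ina TW2, 6.33 kb in Moneyberg BABA TW3, 6.54 kb in Moneyberg MeJA TW3 and 6.04 kb in Moneyberg control. It was 7.94 kb in Bolstar BABA TW2, 6.61 kb in Bolstar Ina TW2 and 7.20 kb in Bolstar control. Medians between both ends were 10.1 to 13.1 kb. The first 5 Mb had medians of 6.61 to 8.19 kb, so short regions were not particular to the window. Only 14 to 22 regions per list, 1.36% to 3.13%, were 20 kb or longer. This share was 6.03% to 9.27% in the first 5 Mb and 20.4% to 31.5% between both ends. Median scores were 93.0 to 120 in the window, 107 to 135 in the first 5 Mb and 162 to 215 between. The density of score differed less: its median was 15.2 to 15.6 per kb in the window and 16.1 to 16.3 per kb between. The median distance from a region to the end was 2.46 to 2.57 Mb, close to the middle of the window.

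The longest regions were found in both cultivars. In Bolstar control they were chromosome 12 from 64835966 to 64884941 (49.0 kb, score 742), the chromosome 6 end described above, and chromosome 2 from 55809412 to 55854449 (45.0 kb, score 557). Moneyberg control had nearly the same chromosome 12 region, from 64836659 to 64884941 (48.3 kb, score 732). Its next longest were chromosome 2 from 55791838 to 55839015 (47.2 kb, score 646) and chromosome 11 from 52188749 to 52220851 (32.1 kb, score 649). Every list covered at least 91.3% of each of these regions. The opposite extreme was chromosome 2 from 53606935 to 54035391, a stretch of 428 kb with no base in any list. Chromosome 6 from 47792713 to 48077422 (285 kb) and chromosome 7 from 66199906 to 66479191 (279 kb) followed. In all, 101 stretches of at least 100 kb in the windows had no listed base.

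How many regions a list held in the window followed its lower limit. Moneyberg control, with the lowest limit of 65, had 1100 regions, and Bolstar BABA TW2, with the highest of 85, had 702. Moneyberg Ina TW2 (limit 68) had 1041, Moneyberg BABA TW3 and BABA TW2 (69) had 1035 and 1028, Moneyberg MeJA TW3 and Bolstar Ina TW2 (71) had 968 and 952, and Bolstar control (78) had 804. The order of the limits and the reverse order of the counts were the same across the 8 lists. The whole lists also followed their limits, from 32856 regions in Moneyberg control to 24151 in Bolstar BABA TW2. At a score of 85 or more the counts were closer, from 668 in Moneyberg control to 734 in Bolstar control. The lower limit and the group cannot be told apart with 1 list per group.

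**Figure D3:**
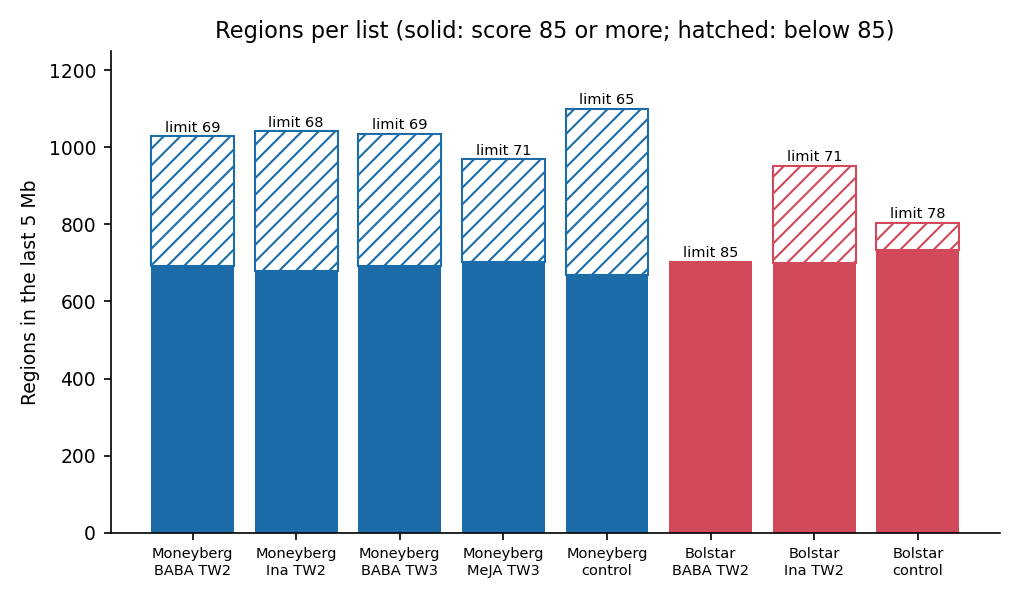
Regions in the last 5 Mb (y axis) for each list (x axis), divided into those with a score of 85 or more (solid) and below (hatched), with the lower limit of the list above the bar. Totals range from 702 to 1100, and solid parts from 668 to 734.

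Compared with their control, 5 of 6 treatment lists had fewer regions in the window. The difference from control in Moneyberg was -72 regions (BABA TW2), -59 (Ina TW2), -65 (BABA TW3) and -132 (MeJA TW3). In Bolstar, BABA TW2 differed by -102 and Ina TW2 by 148. The numbers of regions in the whole lists differed in the same directions. In the same order, the Moneyberg treatments had 31130, 31258, 31115 and 30041, against 32856 in control. The Bolstar treatments had 24151 and 30071, against 26750. Differences in the listed share of the window were -0.34, -0.30, -0.28 and -0.84 percentage points for the Moneyberg treatments. For the Bolstar treatments they were -0.73 and 1.10 points. By chromosome, MeJA TW3 was below Moneyberg control on 11 of 11, BABA TW2 on 9, BABA TW3 on 8 and Ina TW2 on 7. Bolstar BABA TW2 was below its control on 11 of 11 and Bolstar Ina TW2 on none.

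These signs depended on small regions. At the common minimum the Moneyberg treatments had 24 (BABA TW2), 12 (Ina TW2), 23 (BABA TW3) and 33 (MeJA TW3) more regions than control, and their listed shares were higher by 0.43, 0.28, 0.45 and 0.56 points. Bolstar BABA TW2 then had 32 fewer regions than its control and Bolstar Ina TW2 34 fewer, with shares different by -0.043 and -0.57 points. All 4 Moneyberg treatments and Bolstar Ina TW2 thus changed sign, and Bolstar BABA TW2 did not.

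A treatment region was called gained when it shared no base with the control list of its cultivar, and a control region lost when it shared none with the treatment list. Shares carry 95% Wilson intervals, which cover counting over regions only. In Moneyberg BABA TW2, 57 of 1028 regions in the window were gained, 5.54% (4.30% to 7.12%), where 2.91% of the whole list was. Of the 1100 Moneyberg control regions 122 were lost, 11.1% (9.37% to 13.1%), against 4.61% of the whole list. In both directions the share in the window was above that of the list. The first 5 Mb of the same chromosomes had 4.42% (3.54% to 5.50%) gained and 9.48% (8.22% to 10.9%) lost. Both intervals overlapped those of the window, so the higher shares were not particular to the last 5 Mb.

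The other Moneyberg treatments were similar for gains. Ina TW2 gained 51 of 1041 regions, 4.90% (3.75% to 6.38%), beside 2.67% in its whole list, and BABA TW3 gained 50 of 1035, 4.83% (3.68% to 6.31%), beside 2.69%. MeJA TW3 gained 53 of 968, 5.48% (4.21% to 7.09%), beside 2.88%. Losses in Ina TW2 were 105 of 1100 control regions, 9.55% (7.95% to 11.4%), beside 4.39% of the whole control list. In BABA TW3 they were 106, 9.64% (8.03% to 11.5%), beside 4.49%. MeJA TW3 lost most, 173 of 1100, 15.7% (13.7% to 18.0%), beside 5.81%. In the first 5 Mb gains were 3.91% (Ina TW2), 3.97% (BABA TW3) and 4.08% (MeJA TW3). Losses there were 8.33%, 8.66% and 11.2% (9.82% to 12.7%) in the same order. Among these only the interval of the MeJA TW3 losses was apart from that of the window. The 4 comparisons share the Moneyberg control list, so their losses are drawn from the same regions.

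With all regions counted, the Bolstar treatments went opposite ways. Their lower limits, 85 in BABA TW2 and 71 in Ina TW2, lay on either side of the 78 of control. BABA TW2 gained 47 of 702 regions, 6.70% (5.07% to 8.79%), where 2.67% of the whole list was gained, and lost 138 of 804 control regions, 17.2% (14.7% to 19.9%), where 7.07% was lost. Ina TW2 gained 192 of 952 regions, 20.2% (17.7% to 22.8%), with a whole-list share of 7.07%, and lost 49 of 804, 6.09% (4.64% to 7.97%), with a whole-list share of 2.86%. In the first 5 Mb BABA TW2 gained 5.86% (4.70% to 7.30%) and lost 15.0% (13.2% to 17.0%), with intervals that overlapped those of the window. Ina TW2 lost 4.60% (3.63% to 5.82%) there, which also overlapped, and gained 13.3% (11.8% to 15.1%), which was apart. These comparisons share the Bolstar control list.

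**Figure D4:**
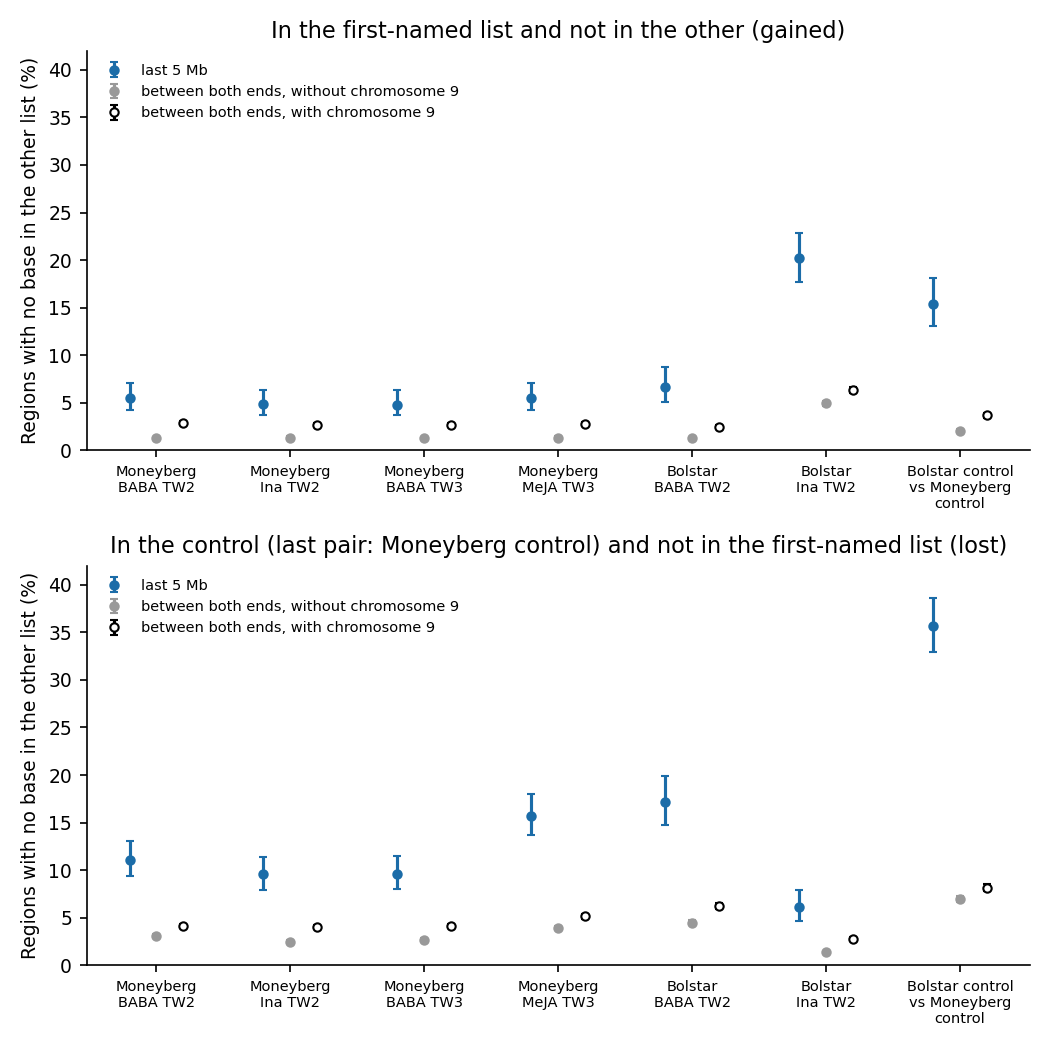
Regions with no base in the other list (%, y axis) in the last 5 Mb (blue) and between both ends without chromosome 9 (grey) and with it (open), for the 6 treatments against the control of their cultivar and for Bolstar control against Moneyberg control. Bars are 95% Wilson intervals over regions. Blue points lie above grey and open ones in every comparison, from 4.83% to 20.2% for gains and from 6.09% to 35.7% for losses.

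Gained and lost regions had low scores. No region with a score of 200 or more was gained or lost in any of the 7 comparisons, among 84 to 103 such regions per list. Among control regions lost in Moneyberg, those below the lower limit of the treatment list, which that list could not hold at their own score, numbered 41 of 122 (BABA TW2), 31 of 105 (Ina TW2), 45 of 106 (BABA TW3) and 94 of 173 (MeJA TW3). In Bolstar, 61 of the 138 regions lost in BABA TW2 lay below its limit. Of the 192 regions gained in Bolstar Ina TW2, 89 lay below the limit of Bolstar control. Counting only regions at the common minimum, gained against lost numbers in Moneyberg were 19 and 6 with BABA TW2, 19 and 10 with Ina TW2, 16 and 6 with BABA TW3 and 26 and 11 with MeJA TW3. They were 47 and 77 for Bolstar BABA TW2 and 26 and 40 for Bolstar Ina TW2. As shares of such regions, Moneyberg gains were 2.32% to 3.71% and losses 0.898% to 1.65%. Between both ends these were 1.63% to 2.05% and 1.14% to 1.48%. Bolstar BABA TW2 had 6.70% and 10.5%, beside 2.43% and 3.95% between both ends. Bolstar Ina TW2 had 3.71% and 5.45%, beside 2.12% and 2.60%. The excess of losses in Moneyberg and of gains in Bolstar Ina TW2 was turned round at this minimum, and the excess of losses in Bolstar BABA TW2 was not. The same held between both ends, so this was not particular to the window. There Moneyberg BABA TW2 went from 737 gained and 1130 lost to 439 and 266. Bolstar Ina TW2 went from 1582 and 624 to 480 and 561. The minimum applies to the counted regions, and the other list kept its own limit, so these counts are not at equal limits. Bolstar control regions were matched to a BABA TW2 list with a limit of 85, and BABA TW2 regions to a control list with a limit of 78.

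Since regions of the window are small, gains and losses were also set beside the interior within a class of score, an account chosen after seeing the data. Intervals called apart or overlapping here and below cover counting over regions of 1 list per group. They describe the lists and are not a test. The interior is given without and with chromosome 9, and in the class of 85 to 119 that choice decided how the treatments read. In the class of 85 to 119, Moneyberg losses in the window were 1.66% (BABA TW2), 2.76% (Ina TW2), 1.66% (BABA TW3) and 3.04% (MeJA TW3), beside 1.82%, 2.07%, 2.16% and 1.99% in the interior without chromosome 9. With chromosome 9 the interior had 3.93%, 5.05%, 5.05% and 4.54%, more than the window in all 4. Intervals overlapped throughout, except for BABA TW3 with chromosome 9 (0.762% to 3.57% in the window, 4.50% to 5.67% in the interior). Gains in this class were 5.07%, 4.70%, 4.01% and 6.58% in the same order, beside 3.26%, 3.43%, 3.08% and 3.64% in the interior without chromosome 9, where the intervals were apart for MeJA TW3 (4.50% to 9.53% against 3.13% to 4.24%). With chromosome 9 the interior had 6.76%, 6.14%, 5.73% and 7.05%, so the direction turned in all 4 and the MeJA TW3 intervals overlapped. For the Moneyberg treatments no separation of intervals in this class held both without and with chromosome 9. Below a score of 85, Moneyberg losses were 22.0% to 37.5% in the window, 15.5% to 26.4% in the interior without chromosome 9 and 19.1% to 27.7% with it. Here the MeJA TW3 losses stayed apart both ways, 37.5% (33.1% to 42.2%) against 26.4% (24.9% to 27.9%) and 27.7% (26.4% to 29.1%). In the other Moneyberg treatments the intervals overlapped once chromosome 9 was included. In the first 5 Mb the MeJA TW3 losses below 85 were 34.2% (30.3% to 38.3%), which overlapped the window. They were thus not particular to the last 5 Mb. Gains below 85 were 8.86% to 11.3% in the window, 5.49% to 6.11% in the interior without chromosome 9 and 9.61% to 10.4% with it.

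In Bolstar the interior without chromosome 9 lay below the window. In the class of 85 to 119, BABA TW2 gained 11.7% (8.73% to 15.5%) in the window and 5.07% (4.39% to 5.85%) in the interior, and lost 18.0% (14.5% to 22.0%) and 9.29% (8.43% to 10.2%). Ina TW2 lost 9.48% (6.98% to 12.7%) in the window and 4.69% (4.08% to 5.39%) in the interior. Its gains were 5.87% (3.91% to 8.72%) and 3.38% (2.89% to 3.95%). With chromosome 9 the interior had 8.19% (7.38% to 9.07%) gained and 14.0% (13.1% to 15.0%) lost for BABA TW2, and 6.99% (6.33% to 7.72%) gained and 8.69% (7.93% to 9.52%) lost for Ina TW2. All 4 intervals then overlapped those of the window, and the Ina TW2 gains of the window were the lower value. In the first 5 Mb, BABA TW2 gained 12.1% (9.50% to 15.2%) and lost 17.4% (14.5% to 20.8%) of this class. Ina TW2 gained 5.66% (4.01% to 7.92%) and lost 8.53% (6.49% to 11.1%) there. These intervals also overlapped those of the window, so the shares were not particular to it.

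**Figure D5:**
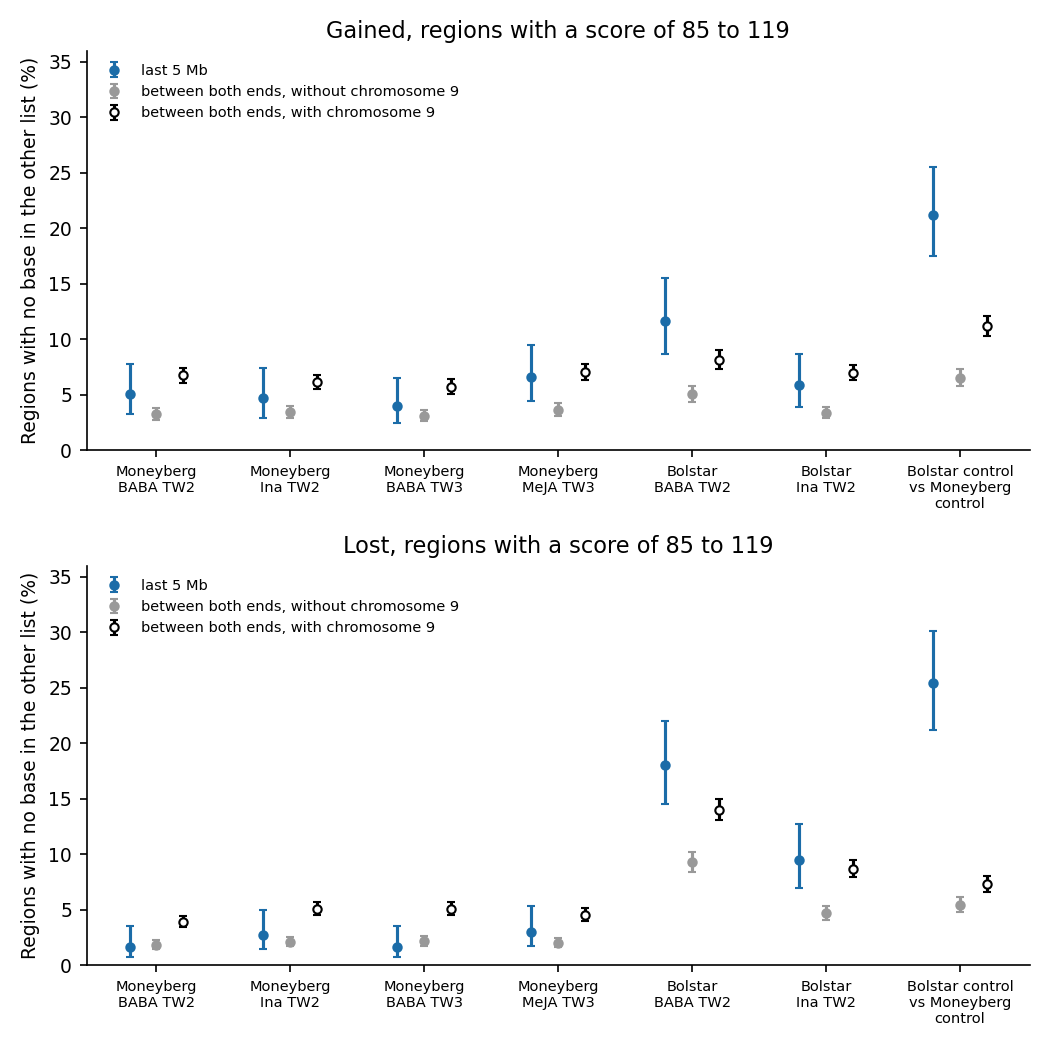
Gained (upper) and lost (lower) regions (%, y axis) among regions with a score of 85 to 119, in the last 5 Mb (blue) and between both ends without chromosome 9 (grey) and with it (open), with 95% Wilson intervals, for the same 7 comparisons. The Moneyberg treatments lose 1.66% to 3.04% in the window, and the comparison of controls reaches 25.4%.

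Gains and losses were spread over the chromosome ends. Every one of the 11 windows held at least 1 gained and 1 lost region in each treatment comparison, except that Bolstar BABA TW2 gained none on chromosome 6. The largest losses by share were on chromosome 7 for Moneyberg BABA TW2 (16.8%) and BABA TW3 (15.8%), on chromosome 10 for Ina TW2 (13.3%) and MeJA TW3 (22.2%), and on chromosome 8 for Bolstar BABA TW2 (28.6%). Bolstar Ina TW2 gained most by share on chromosome 9, 28.3%. Chromosome 2 had the fewest losses for Moneyberg BABA TW2 (5), Ina TW2 (4) and BABA TW3 (4) and for Bolstar BABA TW2 (5).

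The gained regions with the highest scores were as follows. In Moneyberg BABA TW2 the first was chromosome 1 from 94064893 to 94070712 (score 114), found in no other Moneyberg list and over 75.3% in Bolstar Ina TW2. The next were chromosome 9 from 70941966 to 70951320 (score 113) and chromosome 11 from 53986818 to 53993080 (score 112). In Moneyberg Ina TW2 they were chromosome 2 from 55623620 to 55633431 (score 149), chromosome 5 from 65845938 to 65851935 (score 133) and chromosome 7 from 65071748 to 65080535 (score 113). The chromosome 2 region was listed in part or whole in every list but Moneyberg control, and the chromosome 7 region in Ina TW2 alone. The chromosome 2 region ended just before a region of Moneyberg control, 55633447 to 55639472, which is named below as lost in MeJA TW3.

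Moneyberg BABA TW3 gained chromosome 2 from 52228030 to 52239096 (score 156), which Bolstar Ina TW2 also gained, as 52228030 to 52237561 (score 139). Its next regions, chromosome 8 from 65914159 to 65922292 (score 119) and chromosome 6 from 46880521 to 46887417 (score 119), were gained at the same positions in MeJA TW3, with scores of 119 and 118. The chromosome 8 region lay 0.0608 Mb from the chromosome end. It was covered over 93.5% in Bolstar BABA TW2 and in Bolstar control and absent in Bolstar Ina TW2, which lost it (65914685 to 65922292, score 118). The top gain of MeJA TW3, chromosome 7 from 64861788 to 64870796 (score 125), was in no other list.

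In Bolstar, BABA TW2 gained chromosome 11 from 53278430 to 53283410 (score 132), covered over 72.5% to 93.8% in the 5 Moneyberg lists, chromosome 11 from 56122723 to 56131763 (score 128), and chromosome 5 from 62168947 to 62176252 (score 128). The last of these was gained by Bolstar Ina TW2 as well. The top gain of Ina TW2 was chromosome 1 from 95881364 to 95885363 (score 143), a dense region of 35.8 per kb that was listed over 38.0% to 100% in the Moneyberg lists.

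Lost regions recurred between the Moneyberg treatments, which share their control. Chromosome 12 from 64784839 to 64789028 (score 103) was listed in Moneyberg control, covered fully in Bolstar BABA TW2 and over 61.8% in Bolstar Ina TW2, and absent in all 4 Moneyberg treatments. Chromosome 3 from 70105941 to 70111357 (score 102) was also absent in all 4, and covered over 91.3% in Bolstar control. Chromosome 12 from 66301097 to 66306521 (score 109) was lost in Ina TW2, BABA TW3 and MeJA TW3 but covered over 82.4% in BABA TW2, and fully in the 3 Bolstar lists. Chromosome 9 from 71198188 to 71203875 (score 96), the third lost region of BABA TW2, was in Moneyberg control alone. Ina TW2 alone also lost chromosome 12 from 63264204 to 63269331 (score 109). The top loss of MeJA TW3 was chromosome 2 from 55633447 to 55639472 (score 113), which the other 7 lists held in full.

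In Bolstar the top losses of BABA TW2 were chromosome 11 from 51837587 to 51846009 (score 142), chromosome 6 from 49662332 to 49673515 (score 137) and chromosome 5 from 65966731 to 65971999 (score 129). Those of Ina TW2 were chromosome 1 from 96005201 to 96015722 (score 129), the same chromosome 5 region, and the chromosome 8 region named above. The chromosome 5 region was in no list but Bolstar control. The chromosome 1 region was covered fully in Bolstar BABA TW2 and over 93.4% in every Moneyberg list.

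In bases, the Moneyberg treatments kept most of the control's listed sequence in the window. BABA TW2 and its control had 6940 kb in common, with 490 kb in the treatment only and 676 kb in control only. The Jaccard index, bases in both lists over bases in either, was 0.856. Ina TW2 had an index of 0.872, BABA TW3 of 0.871 and MeJA TW3 of 0.825. The MeJA TW3 list had 478 kb of its own and lacked 942 kb. Bolstar BABA TW2 reached 0.789, with 548 kb of its own and 948 kb in control only, and Bolstar Ina TW2 0.786, with 1121 kb of its own and 514 kb in control only. In the interior without chromosome 9 the index was 0.952 to 0.956 in Moneyberg and 0.944 to 0.947 in Bolstar, and with chromosome 9 it was 0.931 to 0.936 and 0.922 to 0.924. The index, like the sharing of 1 base, also depends on how much of a part is listed. That was 11.2% to 13.8% of the window and 61.5% to 62.1% between both ends. The overlap expected from these shares was not computed, so the parts are not compared at like levels of listing. Of the bases in control only, whole lost regions made up 82.7% to 88.3% in all but Bolstar Ina TW2 (62.8%), and the rest lay in regions that shared a base.

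Shared regions of the window often had identical borders. In Moneyberg 67.9% to 71.0% of the treatment regions that shared a base with control had the same start and end as a control region, against 54.4% to 54.8% between both ends. In Bolstar these shares were 58.6% (BABA TW2) and 62.8% (Ina TW2), with 46.6% and 45.1% between both ends. For Bolstar control against Moneyberg control the share was 22.1% in the window and 23.9% between both ends. In the first 5 Mb the shares were 61.8% to 65.7% in Moneyberg, 51.9% and 55.2% in Bolstar, and 26.4% for the controls. Within a cultivar, identical borders were thus more frequent in the window than between both ends. This held for the first 5 Mb too, so it was not particular to the window. For the pair of controls they were not more frequent in the window.

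BABA TW2 and Ina TW2 were given to both cultivars, and there the controls are separate lists. For BABA TW2, 2 of 47 regions gained in Bolstar touched a region gained in Moneyberg (4.26%, or 3.51% of the 57 gained in Moneyberg). Of the 138 regions lost in Bolstar 9 did (6.52%, or 7.38% of 122). For Ina TW2 it was 6 of 192 gained regions (3.12%, or 11.8% of 51) and 4 of 49 lost regions (8.16%, or 3.81% of 105). Over the whole lists, 11.1% of gained and 6.45% of lost Bolstar regions did so for BABA TW2 (7.95% and 8.11% of those in Moneyberg), and 5.31% and 12.9% for Ina TW2 (13.5% and 6.87% in Moneyberg). The losses under BABA TW2 and the Moneyberg share of the gains under Ina TW2 were near these background values, and the other shares rest on 2 to 6 regions.

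In listed bases the cultivars differed more in the window than treatment and control did, with the Jaccard indices given below. Of the 804 Bolstar control regions 124 had no base in Moneyberg control, 15.4% (13.1% to 18.1%), where 4.30% of the whole list had none. Of the 1100 Moneyberg control regions 393 had no base in Bolstar control, 35.7% (32.9% to 38.6%), where 10.1% of the whole list had none. In the first 5 Mb these shares were 10.2% (8.72% to 11.9%) for Bolstar control and 23.9% (22.0% to 25.9%) for Moneyberg control. The smallest region of Bolstar control has a score of 78, and 220 of the 393 were below it. At the common minimum, 100 of 734 Bolstar regions (13.6%) and 106 of 668 Moneyberg regions (15.9%) had no base in the other control list. Between both ends these shares were 3.36% and 2.57%, and in the first 5 Mb 8.68% and 9.23%. The Jaccard index of the controls was 0.567, beside 0.895 in the interior without chromosome 9, 0.873 with it, and 0.727 in the first 5 Mb. As said above, these parts differ in how much is listed.

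Within a class of score the cultivars still differed more in the window than in the interior taken as a whole. In the class of 85 to 119, 21.2% (17.5% to 25.5%) of Bolstar control regions were missing in Moneyberg control, against 6.52% (5.79% to 7.32%) in the interior without chromosome 9. Of the Moneyberg control regions in this class 25.4% (21.2% to 30.1%) were missing in Bolstar control, against 5.44% (4.83% to 6.12%). With chromosome 9 the interior had 11.2% (10.3% to 12.1%) and 7.31% (6.65% to 8.04%), still apart from the window. The interior of chromosome 9, whose inclusion raised both shares, was not given on its own. In the first 5 Mb this class had 16.9% (14.0% to 20.2%) and 18.3% (15.2% to 21.8%). Both intervals overlapped those of the window. In the class of 120 to 199 the shares were 6.44% and 6.31% in the window, 1.32% and 1.81% in the interior without chromosome 9, and 2.95% and 2.56% with it. No region at 200 or more was missing in either direction, among 100 Bolstar and 84 Moneyberg regions of the window.

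All pairs of lists showed the same order. The 15 pairs of a Bolstar and a Moneyberg list had Jaccard indices of 0.542 to 0.626 in the window, the 3 pairs within Bolstar 0.735 to 0.789 and the 10 pairs within Moneyberg 0.825 to 0.900. In Moneyberg the 4 pairs with control had 0.825 to 0.872 and the 6 pairs of treatments 0.854 to 0.900, so these ranges overlapped. When each list was first reduced to regions at the common minimum, the indices were 0.595 to 0.615 between cultivars, 0.819 to 0.854 within Bolstar and 0.863 to 0.896 within Moneyberg. The corresponding ranges in the interior without chromosome 9 were 0.885 to 0.901, 0.943 to 0.951 and 0.948 to 0.952. Indices between cultivars were thus below those within a cultivar with and without the small regions.

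The direction of the cultivar difference did rest on them. With all regions, the 3 Bolstar lists lay below the 5 Moneyberg lists on chromosomes 1, 3, 6, 7, 9 and 10, and overlapped them on the other 5 windows. In 1 Mb bins, all Bolstar lists were lower than all Moneyberg lists in 21 of 55 bins and higher in 3, whereas between both ends they were lower in 77 and higher in 152 of 624. At the common minimum the Bolstar lists were lower in 12 of the 55 bins and higher in 20, and between both ends lower in 35 and higher in 281 of 624, so that more bins were higher than lower in both parts. The largest differences with all regions were 3 bins in which the Bolstar mean was over 5 points below the Moneyberg mean. They lay 2 to 3 Mb from the end of chromosome 12 (16.2% in Bolstar, 21.5% in Moneyberg), 4 to 5 Mb from the end of chromosome 11 (23.7% and 28.9%) and 2 to 3 Mb from the end of chromosome 9 (11% and 16.1%). Bolstar was higher in the outermost bin of chromosome 12 (19.2%, against 15.9% in Moneyberg) and of chromosome 5 (24.8% and 22.0%), and 3 to 4 Mb from the end of chromosome 5 (13.3% and 10.3%).

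Counted by base, 10.2 Mb of the window was listed in at least 1 list, and 41.5% of it in all 8. Between both ends 77.5% of the listed bases were in all 8 lists, and in the first 5 Mb 58.7%. Bases in a single list made up 12.2% in the window, 8.16% in the first 5 Mb and 2.58% between both ends. The parts differ in how much is listed, and no expected overlap was computed for these shares. At the common minimum 46.5% of the listed window bases were in all 8 lists, beside 81.5% in the interior without chromosome 9. Among chromosome ends the share in all 8 was highest on chromosome 2 (54.0%) and lowest on chromosome 7 (35.5%).

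Cultivar-specific listing was frequent in the window. Bases in all 3 Bolstar lists and no Moneyberg list amounted to 649 kb, 6.33% of the listed bases, and the converse to 1009 kb, 9.84%. Between both ends these shares were 1.55% and 1.46%, and in the first 5 Mb 3.70% and 5.71%. Shares above those of the interior were thus not particular to the window. With regions at the common minimum the order was reversed, with 11% for Bolstar alone and 8.74% for Moneyberg alone in the window, beside 2.10% and 1.39% in the interior without chromosome 9. The longest stretch of Bolstar alone was chromosome 5 from 63322505 to 63335660 (13.2 kb), a whole region of Bolstar control with a score of 145. Chromosome 5 held another 2 of the 5 longest, from 63576872 to 63589300 and from 63521721 to 63532842. The others were chromosome 7 from 68154134 to 68165853, 0.0126 Mb from the end, and chromosome 1 from 95748159 to 95758954. The longest of Moneyberg alone was chromosome 10 from 63090059 to 63104927 (14.9 kb, score 147 in Moneyberg control). It was followed by chromosome 11 from 51641979 to 51652447, chromosome 9 from 72859378 to 72869163, chromosome 6 from 45713076 to 45722631 and chromosome 1 from 94015057 to 94024303, of 9.25 to 10.5 kb.

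Other top regions that set the controls apart were not particular to a cultivar. Chromosome 11 from 55209666 to 55217143 (score 157) was listed in Bolstar control and absent in Moneyberg control, but covered over 48.1% in Moneyberg BABA TW2 and 49.0% in Moneyberg Ina TW2. Chromosome 9 from 71385945 to 71391692 (score 150) was in all 3 Bolstar lists and over 42.2% in Moneyberg Ina TW2. Chromosome 2 from 54372187 to 54384546 (score 162) and chromosome 5 from 65198035 to 65206871 (score 154) were in all Moneyberg lists and missing in Bolstar control. Bolstar Ina TW2 covered them over 97.1% and 63.1%, and Bolstar BABA TW2 over 57.6% and 35.8%.

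When overlapping regions of all lists were joined, the window held 1285 loci. Of these 526 (40.9%) were found in all 8 lists and 165 (12.8%) in 1 list, against 75.8% and 4.05% between both ends. The 3 Bolstar lists alone shared 49 loci (3.81%, against 0.677% between both ends) and the 5 Moneyberg lists alone 128 (9.96%, against 1.81%). Loci of a single list were most often those of Moneyberg control, 53 (4.12%, against 1.51%), and of Bolstar Ina TW2, 38 (2.96%, against 0.836%), while Bolstar BABA TW2 had 8 of its own (0.623%, against 0.218%). In the window 2 loci (0.156%) were in all 4 Moneyberg treatments and in no other list, against 3 of 18310 (0.0164%) between both ends. Loci of a single list, of 1 cultivar alone and of the 4 Moneyberg treatments alone took larger shares in the window than between both ends. Loci in all 8 lists took a smaller share in the window. Of the 1862 loci in the first 5 Mb, 10.2% were in 1 list and 50.8% in all 8. The 5 Moneyberg lists alone shared 7.14% of them, and the 3 Bolstar lists alone 2.42%. These shares lay between those of the window and of the interior, so the direction was not particular to the last 5 Mb. The pattern of the 4 Moneyberg treatments rests on 2 and 3 loci. Intervals identical in all 8 lists numbered 67, which is 9.54% of the window regions of the shortest list, against 12.4% between both ends.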

How the data were processed

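Values come from 8 deposited lists, 1 per group, each pooling 12 libraries per the labels. The authors deposited 6 columns without a header: chromosome, start, end, name, score and strand. The score is a whole number per region, for which no definition was found in the labels. The submitters' processing notes name Trim Galore, which trims reads. Not given in the sources used here are the aligner, region caller, genome build, cytosine context and pooling. Read depth is unknown. A different lower limit of score per list affects which small regions are listed.

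Chromosome ends were taken as the last base in any list. Regions were assigned by midpoint. A region was shared when at least 1 base lay in the other list. Python 3.11.15, NumPy 2.4.6, pandas 2.3.3, SciPy 1.17.1 (Wilson intervals, 95%) and Matplotlib 3.10.9 were used, and the overlap functions were tested on simulated data. Named are, per comparison, the 3 gained and 3 lost regions with the highest score, from which examples are given, the 3 longest regions of each control list, the 5 longest cultivar-specific stretches and the 3 longest unlisted stretches. The chromosome 6 end was also chosen after its score was seen. Members and lists were chosen with earlier results of these data known. Alternatives were reciprocal overlap (50%), a minimum score at the list's median or at the common minimum of 85, regions wholly in the window, leaving out chromosome 9, and merging regions under 1 kb apart. Classes of score, the interior without chromosome 9, and bins and indices at the common minimum were added after seeing the data.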

Additional observations from a re-analysis of the deposited data

Results flagged for a closer look

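Ina TW2 went opposite ways in the cultivars. Against control, the window held 148 more regions in Bolstar Ina TW2, and the difference in Moneyberg Ina TW2 was -59 regions. The listed share differed by 1.10 percentage points in Bolstar and by -0.298 points in Moneyberg. At the common minimum of 85 the signs were exchanged, with -34 regions in Bolstar and 12 in Moneyberg. For BABA TW2 the cultivars differed in sign at the common minimum alone, with -32 regions in Bolstar and 24 in Moneyberg. With all regions, the number of regions under Ina TW2 went opposite ways over the whole lists too, not in the window alone. Bolstar Ina TW2 held 30071 regions against 26750 in control, and Moneyberg Ina TW2 held 31258 against 32856. Lower limits were 71 against 78 in Bolstar and 68 against 65 in Moneyberg. With 1 list per group these differences were not tested.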

How the results depend on the processing

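No paired analysis was possible because each group has 1 pooled list, and for the same reason no replicate could be left out. All 14 counts of gained and lost regions stayed within 1.5 times under reciprocal overlap of 50%, under the requirement to lie wholly in the window, and without chromosome 9. At the common minimum, applied to the counted regions and not to the list they were matched to, gained and lost counts were 19 and 6 (Moneyberg BABA TW2), 19 and 10 (Ina TW2), 16 and 6 (BABA TW3), 26 and 11 (MeJA TW3), 47 and 77 (Bolstar BABA TW2), 26 and 40 (Bolstar Ina TW2), and 100 and 106 for the controls of the cultivars. The shares behind these counts are given above. At or above the list's median score all counts were 0 apart from 2 Moneyberg control regions missing in Bolstar control. Listed shares, in the order Moneyberg BABA TW2, Ina TW2, BABA TW3, MeJA TW3, control and Bolstar BABA TW2, Ina TW2, control, were 10.3%, 10.2%, 10.4%, 10.5%, 9.92%, 11.2%, 10.6% and 11.2% at the common minimum. At the list's median score they were 3.53%, 3.50%, 3.45%, 3.37%, 3.64%, 2.76%, 3.55% and 3.14%. Without chromosome 9 they were 13.5%, 13.6%, 13.6%, 13.0%, 13.9%, 11.2%, 13.0% and 12%, so that the ranges of the cultivars met at 13.0%. With regions under 1 kb apart merged they were 13.6%, 13.6%, 13.6%, 13.0%, 13.9%, 11.2%, 13.0% and 11.9%. Differences of the share from control at the common minimum were 0.430, 0.277, 0.450 and 0.562 points for the Moneyberg treatments, opposite in sign to those of all regions, -0.043 for Bolstar BABA TW2, and -0.574 for Bolstar Ina TW2, again opposite. Bases of Bolstar alone were 11% and of Moneyberg alone 8.74% of the listed window bases at that minimum. Bins with all Bolstar lists lower numbered 12 at the common minimum and bins with all higher 20. By construction this minimum leaves out regions that lists with a higher limit could not hold, and other causes of the changes were not tested. The fit with the replicate number as a block was not run, since no values per library were used. Read depth, which would limit the smallest regions first, is unknown.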
